A study of Mus musculus with 9 samples.

Results

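The granzymes are serine proteases stored in the granules of cytotoxic lymphocytes, and perforin is the protein that lets them into a target cell. Of the 54429 gene symbols in the count table, the 9 described here were taken by symbol: Gzma, Gzmb, Gzmc, Gzmd, Gzme, Gzmf, Gzmg, Gzmk and Prf1. The Gzmd to Gzmg subgroup was compared with Gzma, Gzmb and Gzmk. All 9 members were in the table, and 8 of them had enough counts to be tested. Gzmk did not.

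Killer T cells and natural killer (NK) cells kill by emptying their granules against a target. Perforin, encoded by Prf1, opens the membrane of the target, and granzymes then cut proteins inside it. Granzyme B cuts after aspartate and activates caspases and Bid, whereas granzymes A and K cut after basic residues. Mice carry a further set of granzymes next to Gzmb, named c to g and n, which are close copies of each other and are known from activated killer cells and from the pregnant uterus. Their natural targets are less well known than those of granzymes A and B.

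Whole tumors of the mouse neuroblastoma line NB9464, in which MYCN is amplified, were grown under the skin of wild-type C57BL/6 mice aged 4 to 6 weeks at the start. Each treatment began once the tumor measured 250 mm3, so these were large tumors of a single line in hosts with their own lymphocytes. Each of the 3 groups had 3 tumors, and the mice received vehicle, the pair R788 + anti-PDL1, or the triple Rad + R788 + anti-PDL1. R788 (fostamatinib, 50 mg/kg) inhibits the kinase Syk, anti-PDL1 (clone 10F.9G2) blocks a checkpoint ligand, and Rad was a radiation dose of 10 Gy. The triple group is called irradiated here. Arms with a single agent were not analysed here, so the effect of each agent alone could not be separated.

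Total counts lay between 18276683 and 23397886 per library, and 3 counts, the number that a count of 0 allows, corresponded to 0.115 to 0.221 CPM, which are counts scaled to a common library size. Irradiated replicate 1 stood apart from the other 8 libraries. It had counts at 18263 genes, against 19732 to 22129 elsewhere, a normalization factor of 0.743, and 1.97% of its counts in mitochondrial genes against 3.48% to 5.71%. Results of members that move by much without this tumor are given both ways, as is the number of genes called in R788 + anti-PDL1 against vehicle. Of the markers of noradrenergic neuroblasts, Hand2 (6545 to 12901 counts) and Mycn (1265 to 6107) were present in every tumor, whereas Th had 0 counts in all 9 and Dbh had 1 count in a single library.

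The members lie at 3 places in the mouse genome (GRCm38, GENCODE M21 annotation). Gzmb, Gzmc, Gzmf, Gzmg, Gzmd and Gzme, in that order, are transcribed from the minus strand of chromosome 14 between 56117626 and 56262260, a span of 144.6 kb. Gzma (ENSMUSG00000023132.8, 113093825 to 113100981) and Gzmk (ENSMUSG00000042385.14, 113171608 to 113225908) are neighbours on chromosome 13, and Prf1 (ENSMUSG00000037202.6, 61297833 to 61304680) is on chromosome 10. All 9 are protein coding. Gzmf overlaps Gm4022 on the other strand and Gzmk overlaps Esm1. Strand use was not stated for the libraries, so counts at these overlaps were uncertain, although Gm4022 had 0 counts in all 9 tumors.

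The clustered granzymes also resemble each other in the DNA just before their start sites. Over 250 bases upstream of the RefSeq start (GRCm38.p6), which was found for all 9 members, the 10 pairs among Gzmc to Gzmg had 70.2% to 94.8% identical bases in alignment, with a median of 79.0%. The 20 pairs that each joined one of these 5 with Gzma, Gzmb, Gzmk or Prf1 had 42.5% to 48.9%. The last 120 bases before the start are printed 5′ to 3′ for the 5 copies, because these are the members whose levels varied together, and for Gzmb, their neighbour with another pattern. Capitals mark TGACGTCA, the full binding motif of CREB and ATF factors, or the 8 bases aligned with it. The last bases of the Gzmd and Gzmf windows, 15 and 10 of them, fall inside the transcript as GENCODE draws it, and the RefSeq start of Gzmb lies 74 bases upstream of GENCODE's.
Gzmc, chr14:56234658-56234777, minus strand: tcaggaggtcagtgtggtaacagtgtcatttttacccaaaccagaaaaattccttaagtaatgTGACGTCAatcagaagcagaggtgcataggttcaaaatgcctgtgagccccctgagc
Gzmg, chr14:56159580-56159699, minus strand: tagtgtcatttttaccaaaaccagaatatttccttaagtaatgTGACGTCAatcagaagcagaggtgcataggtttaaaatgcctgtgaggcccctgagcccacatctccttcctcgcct
Gzmf, chr14:56211408-56211527, minus strand: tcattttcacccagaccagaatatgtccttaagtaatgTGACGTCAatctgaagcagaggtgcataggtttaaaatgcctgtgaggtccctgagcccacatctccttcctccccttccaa
Gzmd, chr14:56132594-56132713, minus strand: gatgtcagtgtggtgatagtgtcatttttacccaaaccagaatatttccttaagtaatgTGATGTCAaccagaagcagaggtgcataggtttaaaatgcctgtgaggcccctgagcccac
Gzme, chr14:56120626-56120745, minus strand: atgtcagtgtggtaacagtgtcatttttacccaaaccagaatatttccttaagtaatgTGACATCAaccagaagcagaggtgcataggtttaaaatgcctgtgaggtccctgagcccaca
Gzmb, chr14:56262335-56262454, minus strand: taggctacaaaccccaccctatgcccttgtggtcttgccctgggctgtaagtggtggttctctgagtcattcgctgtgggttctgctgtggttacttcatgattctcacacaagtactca
The motif was present 57, 77 and 82 bases before the start in Gzmc, Gzmg and Gzmf. With positions counted from 1 at the 5′ end of the 8 bases of Gzmc, the aligned bases differed by C4T in Gzmd and by G5A in Gzme. On either strand, TGACGTCA occurred in 1.55% of 32851 mouse promoter windows of this length. Its first part alone, TGACGT, which every full match also contains, occurred in 6.47% of them and in Gzmc, Gzmf, Gzmg and Prf1. The RUNX motif TGTGGT was in 8 of the 9 members, the exception being Gzmk, and in 14.05% of all windows. The AP-1 motif TGANTCA was in Gzmb alone among the members (6.75% of windows) and the T-box motif AGGTGTGA was in none (1.12%). These are matches of letters, and no binding was measured.

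The copies are alike enough within their transcripts for short stretches of sequence to be shared. Between 33.8% and 42.1% of the 31-base words of Gzmd, Gzme, Gzmf and Gzmg also occurred in another gene, and 14.8% of those of Gzmc did. For Gzmb the share was 1.4%, and for Gzma and Gzmk it was 0. With 100-base words the shares were at most 0.2%, apart from 6.7% for Gzmf, which were shared with Gm4022. The counts are estimates by Salmon, which splits reads that fit several transcripts, so the division of reads among Gzmd to Gzmg was less certain than their sum.

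Gzmc to Gzmg were higher in the irradiated tumors than in every other tumor of the study. For each of the 5 genes, the lowest irradiated value lay above the highest value of both other groups, whereas vehicle and R788 + anti-PDL1 overlapped. None of the 5 passed the test after adjustment over all 15931 genes in edgeR's quasi-likelihood test. Among all tested genes, 9.27% were higher without overlap in irradiated than in vehicle tumors, and 14.2% than in R788 + anti-PDL1 tumors. The share above both groups at once was not computed. The 5 copies share sequence and varied together, so they are not 5 separate observations. Whole tumors were measured, so more cells that make a transcript and more transcript per cell cannot be told apart.

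Gzmc (ENSMUSG00000079186.3, chromosome 14, 56231441 to 56234656) had 8.83, 4.89 and 5.43 CPM in vehicle replicates 1 to 3. It had 6.48, 1.41 and 4.84 CPM in R788 + anti-PDL1 and 26.8, 11.6 and 11 CPM in the irradiated tumors. The high value of irradiated replicate 1 stood out even within its group. Gzmc was 2.58-fold higher in irradiated than in vehicle tumors (log2 fold change 1.37 ± 0.57 SE, adjusted p = 0.355). Without irradiated replicate 1 this log2 fold change was 0.85.

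Gzmd (ENSMUSG00000059256.6, chromosome 14, 56129556 to 56132608) had 4.58, 1.30 and 2.69 CPM in vehicle tumors, 3.97, 0.688 and 3.07 CPM with R788 + anti-PDL1, and 16.6, 9.94 and 9.91 CPM in irradiated tumors. The 3 irradiated values were above the other 6, and R788 + anti-PDL1 replicate 2 was the lowest of all 9. The difference from vehicle was 4.25-fold (2.09 ± 0.65, adjusted p = 0.273) and that from R788 + anti-PDL1 was 4.71-fold (2.24 ± 0.65, adjusted p = 0.222).

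Gzme (ENSMUSG00000022156.8, chromosome 14, 56117626 to 56120625) was the least abundant copy. It had 24, 6 and 6 counts in vehicle tumors, 28, 4 and 9 with R788 + anti-PDL1, and 58, 61 and 84 in irradiated tumors. Both unirradiated groups had 1 tumor, replicate 1, with clearly more counts than the other two. The irradiated mean of 3.74 ± 0.598 CPM (SD, n = 3) was 5.82-fold that of vehicle (2.54 ± 0.83, adjusted p = 0.285). Without vehicle replicate 1 this log2 fold change was 3.63, and that against R788 + anti-PDL1 went from 2.67 to 3.81 without replicate 1 of the latter.

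Gzmf (ENSMUSG00000015441.4, chromosome 14, 56205263 to 56211417) varied least of the 5 copies relative to its mean among the irradiated tumors, with 7.15, 5.94 and 6.53 CPM. The vehicle tumors had 3.31, 2.29 and 1.92 CPM and the R788 + anti-PDL1 tumors 3.57, 0.803 and 1.76 CPM, so these groups overlapped. Irradiated tumors exceeded vehicle by 1.38 ± 0.52 on the log2 scale (adjusted p = 0.332) and R788 + anti-PDL1 by 1.68 ± 0.52 (adjusted p = 0.222).

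Gzmg (ENSMUSG00000040284.4, chromosome 14, 56156582 to 56159579) had the lowest count of the 5 copies in any tumor. It had 73, 29 and 34 counts in vehicle tumors, 54, 1 and 47 with R788 + anti-PDL1, and 223, 195 and 200 in irradiated tumors. The single count of R788 + anti-PDL1 replicate 2 was under the 3 counts that a count of 0 allows, while the other 2 tumors of that group were within the range of vehicle. Gzmg was 4.93-fold higher in irradiated tumors than in vehicle (2.30 ± 0.92, adjusted p = 0.350) and 3.03 ± 0.95 higher on the log2 scale than with R788 + anti-PDL1 (adjusted p = 0.222), or 2.45 without replicate 2 of the latter.

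**Figure D1:**
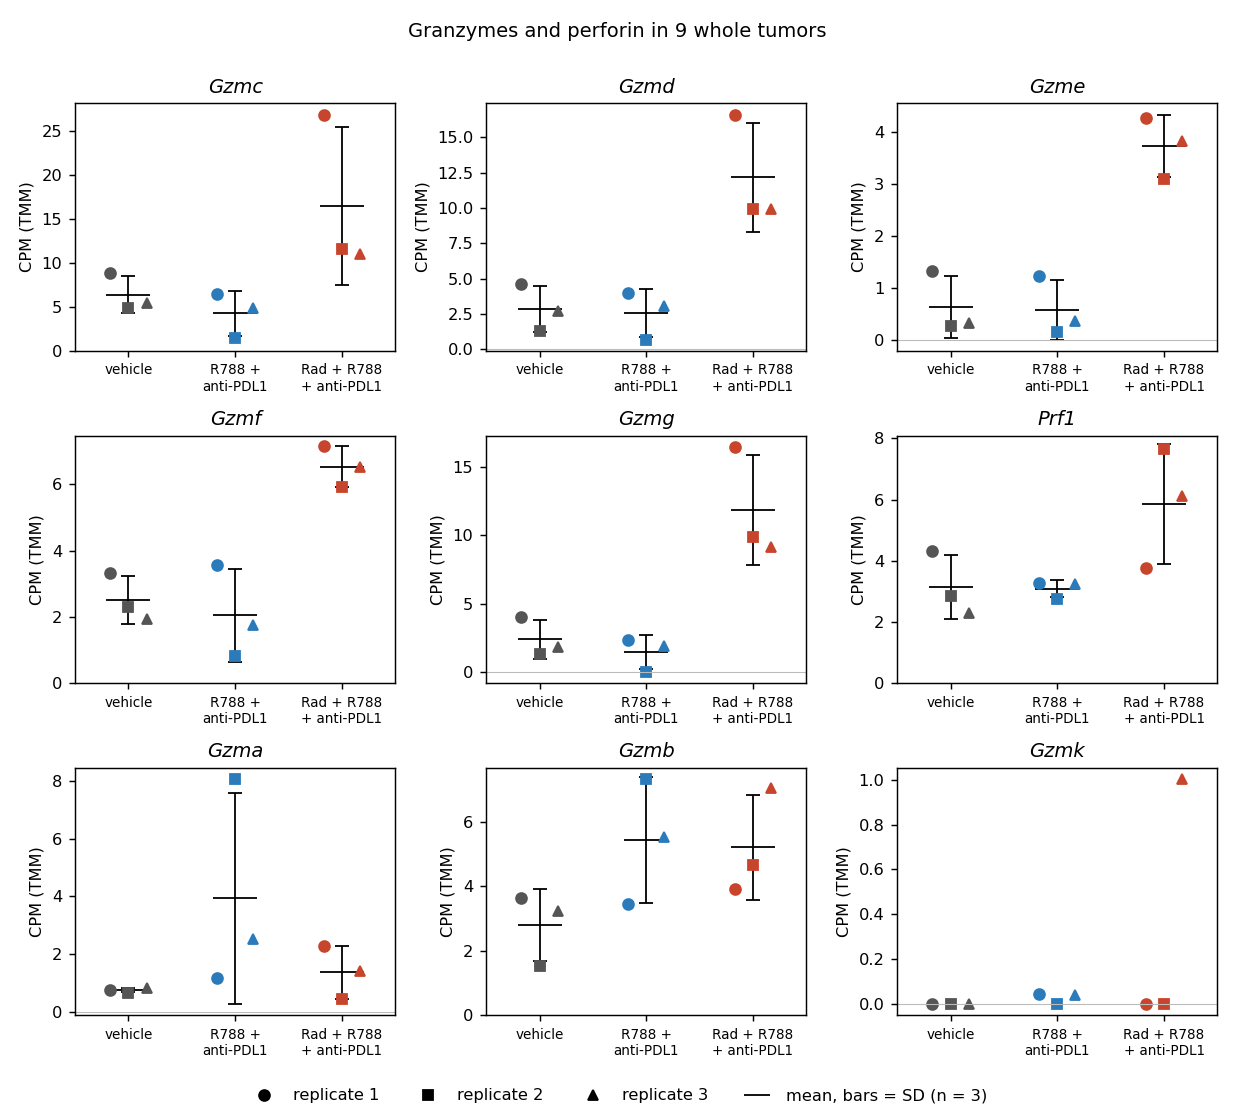
CPM (TMM-normalized; vertical axes differ between panels) of each member in each tumor, with replicates 1 to 3 as circles, squares and triangles and the mean ± SD of 3 tumors in black, which is left out for Gzmk. Gzmc to Gzmg are highest in the 3 irradiated tumors, Gzma is highest in R788 + anti-PDL1 replicate 2 at 8.06 CPM, and Gzmk has 1 CPM in irradiated replicate 3 and at most 0.0441 CPM elsewhere.

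Against vehicle, R788 + anti-PDL1 gave log2 fold changes of -0.59 for Gzmc, -0.15 for Gzmd, -0.13 for Gzme, -0.30 for Gzmf and -0.73 for Gzmg, with adjusted p-values from 0.763 to 0.975. Each of these 95% intervals included 0. That of Gzmd ran from -1.58 to 1.28, from 0.335-fold to 2.43-fold. With 3 tumors per group, the data were thus compatible with differences of that size in either direction. R788 + anti-PDL1 replicate 2 had the lowest value of all 9 tumors at each of the 5 genes.

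The 5 copies varied together over the 9 tumors. Their log2 CPM correlated pairwise at r = 0.888 to 0.974 over the 9 libraries, and at 0.752 to 0.991 over the 6 unirradiated ones. These are descriptions of tumors that share groups and, for these genes, of reads that partly share sequence. Gzmc took 36.8% to 48.7% of the counts of the 5 genes in the 6 unirradiated tumors. Its share was 37.6%, 28.7% and 27.2% in irradiated replicates 1 to 3, so in replicates 2 and 3 the other copies made up more of the sum than in any unirradiated tumor.

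Gzma, Gzmb and Gzmk, the granzymes usually taken as the main ones of killer lymphocytes, followed another order of tumors. Gzma had 0.773, 0.674 and 0.822 CPM in vehicle tumors, a narrow range. It had 1.19, 8.06 and 2.54 CPM with R788 + anti-PDL1 and 2.29, 0.457 and 1.42 CPM in irradiated tumors. All 3 R788 + anti-PDL1 tumors were above all 3 vehicle tumors, and the irradiated tumors lay on both sides of vehicle.

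The difference in Gzma between R788 + anti-PDL1 and vehicle was 5.18-fold, with a 95% interval of 1.53 to 17.6 (2.37 ± 0.79 on the log2 scale, adjusted p = 0.253). Without R788 + anti-PDL1 replicate 2, which held 211 of the group's counts where the other two held 27 and 62, the log2 fold change was 1.30. The irradiated tumors differed from vehicle by 0.86 ± 0.78 (adjusted p = 0.596) and from R788 + anti-PDL1 by -1.52 ± 0.76 (adjusted p = 0.303). Both values moved with single tumors, and the first also with the tool. The first was 0.35 without irradiated replicate 1, and 0.011 by voom with sample quality weights. The second was -0.44 without R788 + anti-PDL1 replicate 2.

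Gzmb (ENSMUSG00000015437.5, chromosome 14, 56258838 to 56262260), the caspase-activating granzyme at one end of the cluster, had 3.64, 1.53 and 3.23 CPM in vehicle tumors. It had 3.44, 7.34 and 5.53 CPM with R788 + anti-PDL1 and 3.91, 4.67 and 7.03 CPM in irradiated tumors. The irradiated values were all above vehicle, and R788 + anti-PDL1 replicate 1 fell inside the vehicle range. The log2 fold changes against vehicle were of like size, 0.96 ± 0.45 with R788 + anti-PDL1 (adjusted p = 0.464) and 0.90 ± 0.45 in irradiated tumors (adjusted p = 0.404). Between the treated groups the difference was -0.06 ± 0.45 (adjusted p = 0.949), with a 95% interval from 0.479-fold to 1.92-fold.

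Gzmk was close to absent. It had 22 counts in irradiated replicate 3, 1 count each in R788 + anti-PDL1 replicates 1 and 3, and 0 in the other 6 tumors. It did not pass the filter on low counts, and exact two-sided permutation tests gave p = 0.4 for R788 + anti-PDL1 against vehicle and p = 1 for both comparisons of the irradiated tumors, where the smallest p that 3 tumors against 3 allow is 0.1. Esm1, which overlaps Gzmk, had 103 to 202 counts in all tumors and 133 in irradiated replicate 3.

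By correlation, perforin was nearer to Gzmc to Gzmg than to Gzma or Gzmb, but it did not follow them in every tumor. Prf1 had 4.31, 2.83 and 2.30 CPM in vehicle tumors, 3.26, 2.75 and 3.24 CPM with R788 + anti-PDL1, and 3.76, 7.66 and 6.12 CPM in irradiated tumors. Irradiated replicates 2 and 3 were the highest of the 9, but irradiated replicate 1, which had the most Gzmc to Gzmg, lay within the vehicle range. Prf1 was 1.86-fold higher in irradiated than in vehicle tumors (0.90 ± 0.39, adjusted p = 0.371) and did not overlap R788 + anti-PDL1, from which it differed by 0.92 ± 0.39 (adjusted p = 0.257). R788 + anti-PDL1 and vehicle had means of 3.08 ± 0.288 and 3.15 ± 1.04 CPM (SD, n = 3), with a 95% interval of the difference from 0.536-fold to 1.79-fold.

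**Figure D2:**
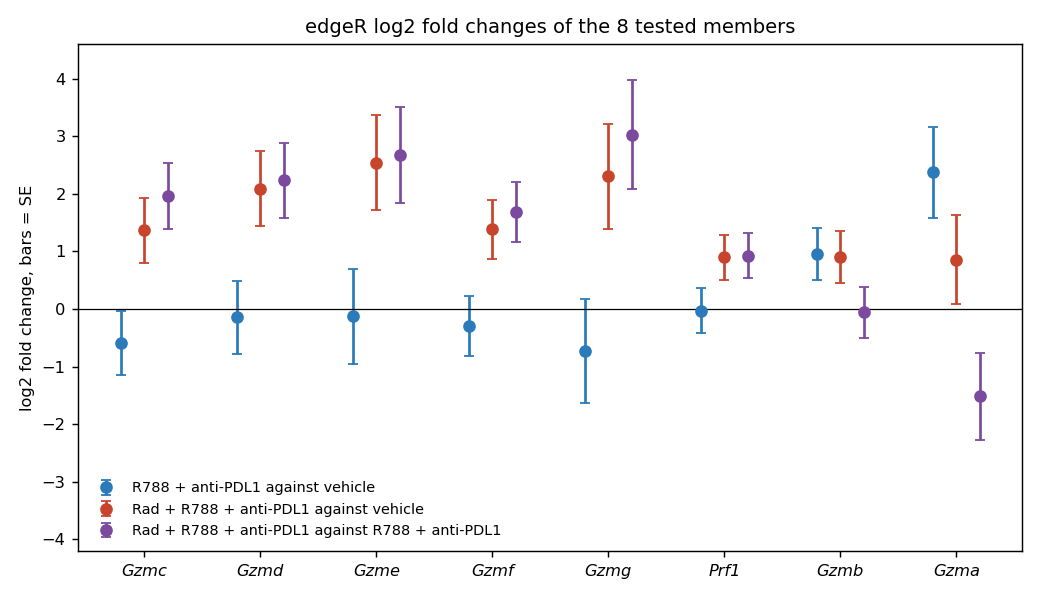
Log2 fold change (points) with its SE (bars) for the 8 tested members in the 3 comparisons, from edgeR fitted to all 9 tumors. Gzmc to Gzmg lie between 1.37 and 3.03 in both comparisons of the irradiated tumors and between -0.73 and -0.13 in R788 + anti-PDL1 against vehicle, where Gzma has the highest value at 2.37.

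Over the 3 comparisons, which share groups, edgeR called 0 of the 8 tested members at an adjusted p under 0.05. Among all genes it called 0.678% in R788 + anti-PDL1 against vehicle, 0.0439% in irradiated against vehicle and 0.00628% in irradiated against R788 + anti-PDL1. DESeq2, the tool of the study, called Gzma in the first comparison (adjusted p = 0.0454), Gzmd and Gzme in the second (0.0300 and 0.0449) and all of Gzmc to Gzmg in the third (0.0167 to 0.0315). In the same order it called 770, 611 and 822 of all genes, where edgeR called 108, 7 and 1. Irradiated replicate 1 weighed on these numbers through the spread that the 3 groups share. Without it, edgeR's common estimate of the spread fell from 0.146 to 0.087. EdgeR then called 856 genes in the first comparison instead of 108, and still 0 members.

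At an unadjusted p under 0.05, edgeR picked 1, 6 and 6 of the 8 members, all higher, against 5.96%, 7.71% and 11.7% of all genes higher at that level. The member of the first comparison was Gzma, and those of the other two were Gzmc to Gzmg and Prf1. Groups did not overlap, with the first group higher, at 1, 6 and 6 members, against 13.6%, 9.27% and 14.2% of all genes. The median log2 fold change over the tested members was -0.14, 1.37 and 1.82, where that of all tested genes was -0.02, 0.05 and 0.04.

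The number of the 5 clustered copies at an unadjusted p under 0.05 depended on single tumors in irradiated against vehicle. It was 5 with all tumors, 2 without vehicle replicate 2 or vehicle replicate 3, and 3 without irradiated replicate 1, where their log2 fold changes ran from 0.85 to 2.46. Against R788 + anti-PDL1 it was 5 in each of the 9 fits that left out a tumor. Over these fits the log2 fold changes of the 5 ran from 0.85 to 3.63 against vehicle and from 1.43 to 3.81 against R788 + anti-PDL1.

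The subgroups differed in which tumors were high. Gzmd to Gzmg summed to 13.3, 5.16 and 6.80 CPM in vehicle tumors, 11.2, 1.68 and 7.13 CPM with R788 + anti-PDL1, and 44.5, 28.9 and 29.4 CPM in irradiated tumors. Gzma, Gzmb and Gzmk summed to 4.42, 2.20 and 4.06 CPM, 4.67, 15.4 and 8.11 CPM, and 6.20, 5.12 and 9.45 CPM in the same order. The irradiated tumors were thus the 3 highest for the first sum, whereas R788 + anti-PDL1 replicate 2 was the highest for the second and the lowest for the first. Irradiated tumors had a mean of 34.3 ± 8.86 CPM for Gzmd to Gzmg (SD, n = 3) against 8.40 ± 4.28 in vehicle and 6.66 ± 4.76 with R788 + anti-PDL1. The other sum had means of 6.92 ± 2.25, 3.56 ± 1.19 and 9.40 ± 5.48 CPM.

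As a share of the counts of both subgroups, Gzmd to Gzmg made up 75%, 70.1% and 62.6% in vehicle tumors. The share was 70.5%, 9.84% and 46.8% with R788 + anti-PDL1, and 87.8%, 84.9% and 75.7% in irradiated tumors. The 9.84% of R788 + anti-PDL1 replicate 2 had an exact 95% binomial interval of 7.24% to 13%, and the next lowest share, 46.8% in replicate 3 of that group, had one of 41.6% to 52.0%. These intervals cover counting error alone and leave out the spread between tumors. The reads carried no molecular identifiers and the counts were estimates, so the intervals may be too narrow. The share of each irradiated tumor was above that of every unirradiated one, but the lowest, 75.7% in irradiated replicate 3, and the 75% of vehicle replicate 1 agreed within counting error, with intervals of 72.7% to 78.5% and 69.9% to 79.7%. The median log2 fold change of Gzmd to Gzmg was -0.22, 2.20 and 2.45 in the 3 comparisons, and that of Gzma and Gzmb, the tested members of the other subgroup, was 1.67, 0.88 and -0.79.

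**Figure D3:**
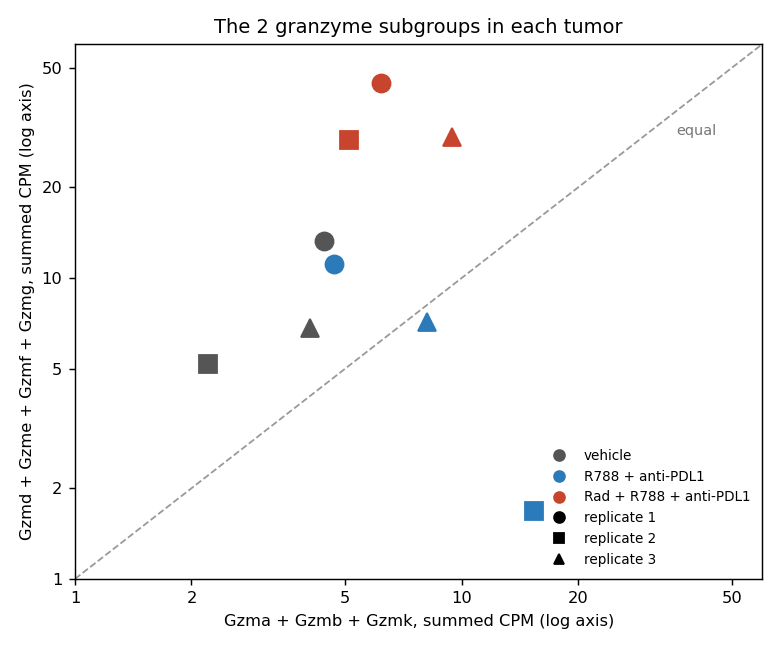
Summed CPM of Gzmd to Gzmg (vertical, log axis) against summed CPM of Gzma, Gzmb and Gzmk (horizontal, log axis), with 1 point per tumor, colored by group and shaped by replicate, and a dashed line where both are equal. The 3 irradiated tumors lie highest at 28.9 to 44.5 CPM, and R788 + anti-PDL1 replicate 2 lies at 1.68 CPM against 15.4 CPM, far below the line.

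Correlations of Gzma with the clustered copies over the 9 tumors were negative, r = -0.328 to -0.567, and were -0.522 to -0.875 over the 6 unirradiated tumors. Gzmb had r = -0.128 to 0.207 with the same copies over the 9 tumors, on both sides of 0. Gzma and Gzmb had r = 0.601. Prf1 had 0.556 to 0.795 with Gzmc to Gzmg, -0.368 with Gzma and 0.358 with Gzmb. These are descriptions over 9 tumors of 3 groups.

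Per kilobase of the longest coding transcript, Gzmc was the most abundant member in all groups. Its level was 7.14 ± 2.39 CPM per kb in vehicle tumors (SD, n = 3), above the range of the next, Gzmd, at 2.96 ± 1.71. Gzmd, Gzmf, Gzmg, Gzmb and Prf1 followed, each overlapping the next, and then Gzma, Gzme and Gzmk at 0. With R788 + anti-PDL1, every neighbour in the order Gzmc (4.75 ± 2.89), Gzma (3.95 ± 3.66), Gzmb, Gzmd, Gzmf, Gzmg, Prf1 and Gzme overlapped. In irradiated tumors Gzmc (18.5 ± 10.0), Gzmg (13 ± 4.42) and Gzmd (12.6 ± 3.99) overlapped, and Gzmf at 7.12 ± 0.663 CPM per kb was below all values of Gzmd and above all values of Gzme.

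The 9 listed neighbours on chromosome 14 are proteases of mast cells and myeloid cells, apart from Gzmn, a granzyme inside the cluster. Gzmn, Cma2, Mcpt1 and Mcpt9 had 0 counts in all tumors, and Ctsg, Mcpt2 and Mcpt8 had at most 11. Only Mcpt4 and Cma1 were tested, and their pattern differed from that of Gzmc to Gzmg. Mcpt4, a mast cell chymase, had 63, 4 and 15 counts in vehicle tumors, 312, 669 and 403 with R788 + anti-PDL1, and 67, 36 and 34 in irradiated tumors. Its R788 + anti-PDL1 values lay above all others. The log2 fold change against vehicle was 3.65 ± 0.89 for Mcpt4 (adjusted p = 0.111) and 3.33 ± 1.01 for Cma1, the mast cell protease chymase 1 (adjusted p = 0.208). Between irradiated and R788 + anti-PDL1 tumors the differences were -2.76 and -2.86, opposite in sign to those of Gzmc to Gzmg.

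**Figure D4:**
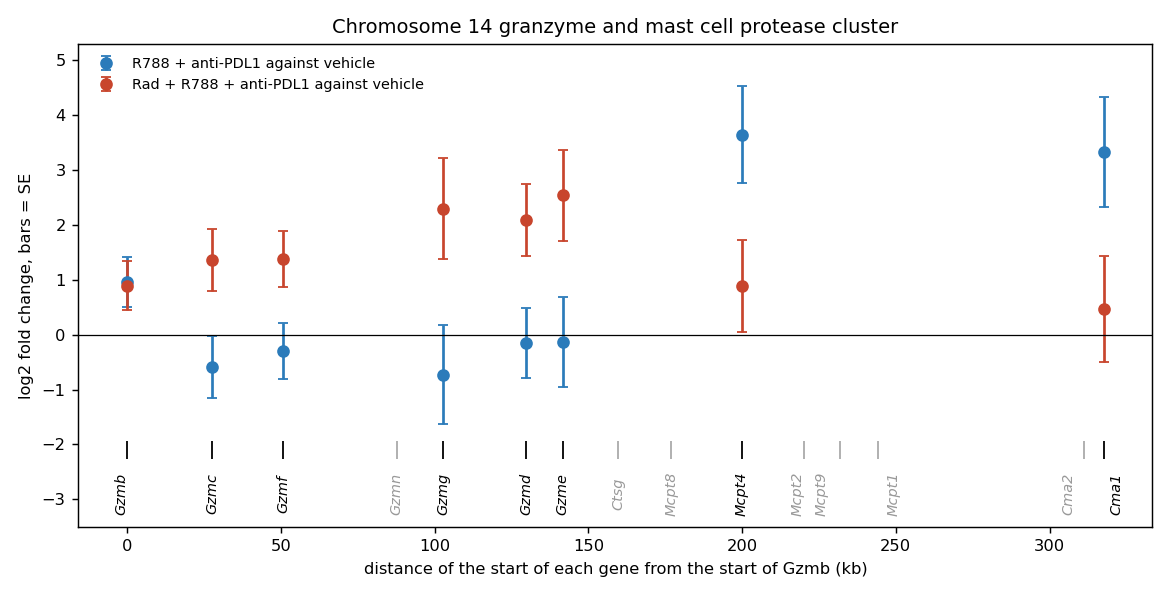
Log2 fold change (points) with its SE (bars) along chromosome 14, by distance in kb of each gene's start from that of Gzmb, for R788 + anti-PDL1 (blue) and Rad + R788 + anti-PDL1 (red) against vehicle. Ticks mark gene starts, with genes that were not tested in gray. Gzmc to Gzme have values of 1.37 to 2.54 in red and below 0 in blue, whereas Mcpt4 and Cma1 have 3.65 and 3.33 in blue and 0.89 and 0.46 in red.

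Markers of cells that could carry these granules were read beside the granzymes. The Cd3 chains, which mark T cells, had few counts in most tumors. Cd3d, Cd3e and Cd3g together had 4 to 6 counts in vehicle tumors, 9 to 25 with R788 + anti-PDL1, and 5, 5 and 150 in irradiated replicates 1 to 3. Cd8a and Cd8b1 together had 7 to 17, 9 to 31, and 0, 3 and 160 counts. Irradiated replicates 1 and 2 had 71.3 and 40.5 CPM of Gzmc to Gzmg at 5 counts of the Cd3 chains each, and irradiated replicate 3 had 40.4 CPM at 150 counts. Other genes of the list were not as low in irradiated replicate 2, where Trac, the constant region of a T cell receptor chain, had 19 counts against 2 to 7 in vehicle tumors, and Cd4 had 105 against 18 to 56. All 14 genes of the T cell list summed to 17.7, 21.0 and 70.6 CPM in irradiated tumors. They summed to 39.6, 36.8 and 30.1 CPM with R788 + anti-PDL1, and 17.5, 10.9 and 10.9 CPM in vehicle. Each irradiated sum was thus above every vehicle sum, replicate 1 by little. Thy1 alone gave 11.4 of the 17.7 CPM in irradiated replicate 1, and 7.78 of the 17.5 CPM in vehicle replicate 1. Without Thy1, irradiated replicate 1 would lie below vehicle replicate 1. In irradiated replicate 2, Thy1, Cd4 and Lck had 8.93, 5.33 and 4.67 CPM. Irradiated replicate 3 was also the tumor with 22 counts of Gzmk and the highest macrophage list, at 1239 CPM against 185 to 446 in the other 8.

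NK cells were read from 10 genes, among them the receptors Ncr1 and Klrb1c. Their summed level was 3.01 to 5.02 CPM in vehicle tumors, 5.20, 15.1 and 8.69 CPM with R788 + anti-PDL1, and 5.68, 3.50 and 22 CPM in irradiated tumors. Ccl5, a chemokine that T cells and macrophages also make, held 278 of the 482 counts in irradiated replicate 3. Without it the sums were 1.75 to 3.26, then 3.92, 11.6 and 6.68, and 4.72, 2.18 and 9.32 CPM, and R788 + anti-PDL1 replicate 2 was the highest. R788 + anti-PDL1 replicate 2, which had the most Gzma and the least Gzmc to Gzmg, had 55 counts of Ncr1 and 51 of Klrb1c, the most of any tumor. In irradiated replicates 1 and 2, Ncr1 had 3 and 6 counts and Klrb1c 9 and 0. The genes of the list went different ways in irradiated replicate 1. There Klrb1c had 0.664 CPM, against 0.0548 to 0.221 in vehicle tumors, and Txk had 1.18 CPM, the most of the 9 tumors. Klrk1, Klre1 and Klra8 were also above all vehicle tumors, Xcl1 and Ccl5 were below them, and Ncr1, Klrd1 and Klri2 were within their range. All 8 tested NK genes had positive log2 fold changes in R788 + anti-PDL1 against vehicle (median 1.79) and in irradiated against vehicle (median 1.43), and 0 were called. The part of NK cells in the values of Gzma was not tested.

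Mast cell genes were highest with R788 + anti-PDL1. Cma1, Mcpt4, Tpsb2 and Cpa3 together had 12.8, 0.808 and 3.01 CPM in vehicle tumors, 48.4, 75.6 and 53.1 CPM with R788 + anti-PDL1, and 12.0, 6.95 and 4.75 CPM in irradiated tumors. Of the 9 tested genes of the mast cell and basophil list, 8 did not overlap and were higher in R788 + anti-PDL1 than in vehicle, and all 9 were lower in irradiated than in R788 + anti-PDL1 tumors without overlap, with 0 called in either comparison. Among all tested genes, 13.6% were higher without overlap in the first of these comparisons and 13.2% lower in the second. The sum over the whole list was 15.9, 9.29 and 7.76 CPM in irradiated replicates 1 to 3 and 15.5, 5.07 and 4.66 CPM in vehicle tumors, so irradiated replicate 1 was slightly above the highest vehicle tumor and the other two were between vehicle tumors. Tpsab1, a mast cell tryptase, had 6, 1 and 10 counts in irradiated tumors against at most 1 in vehicle. Mcpt8, a basophil protease, had 0 counts except for 2 in irradiated replicate 3.

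For the T cell list, 6 of 14 genes were tested, and their medians were 1.004, 2.16 and 0.17 in the 3 comparisons. Macrophage genes had medians of 0.63, 1.29 and 0.51 over 8 tested genes. Neutrophil genes had -1.87, -0.29 and 1.74 over 4 tested genes, with the defining genes Ly6g and Ngp at 0 in all tumors. Plasmacytoid dendritic cell genes had -0.50, -0.55 and -0.05 over 3, and Siglech, their defining marker, had at most 6 counts. No gene of these 4 lists was called.

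**Figure D5:**
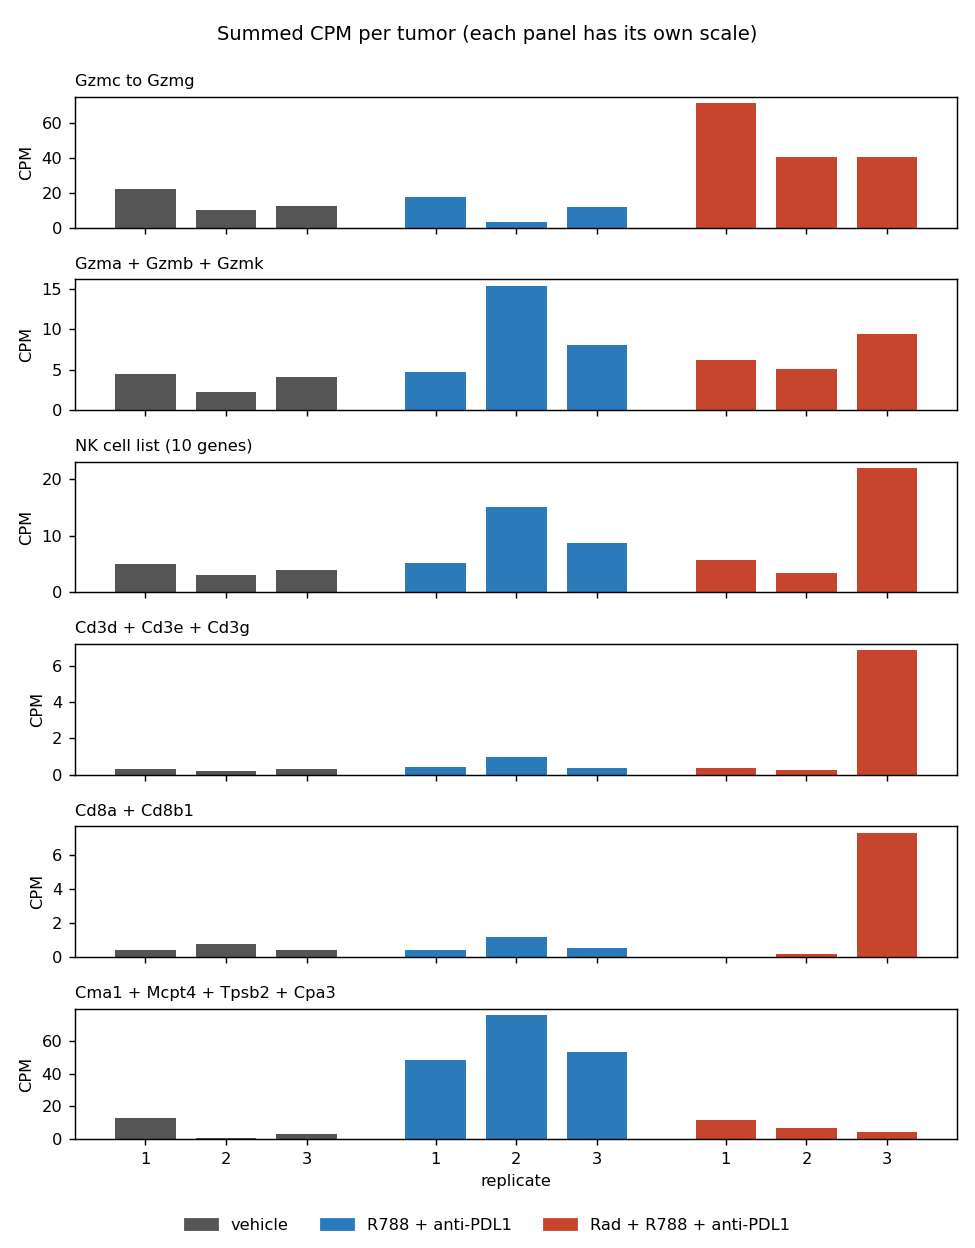
Summed CPM in each tumor (bars, replicates 1 to 3 within each group, a separate scale per panel) for both granzyme sums and for markers of NK cells, T cells and mast cells. Gzmc to Gzmg are highest in the 3 irradiated tumors at 40.4 to 71.3 CPM, whereas the Cd3 and Cd8 sums are high in irradiated replicate 3 alone and the mast cell sum is high in R788 + anti-PDL1 at 48.4 to 75.6 CPM.

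The rest of the killing pathway was read from lists of genes by role, in the order R788 + anti-PDL1 against vehicle, irradiated against vehicle, and irradiated against R788 + anti-PDL1. Of 8 genes for granule contents and processing, 6 were tested, and 1 was called lower in the first comparison and 0 in the others. The called gene was Lamp1, a membrane protein of lysosomes in all cells that reaches the surface when granules are released. It had 2999, 2171 and 2390 CPM in vehicle tumors, 963, 464 and 801 CPM with R788 + anti-PDL1, and 942, 1098 and 1046 CPM in irradiated tumors. It fell by 1.76 ± 0.30 on the log2 scale with R788 + anti-PDL1 (adjusted p = 0.0397), and differed by -1.29 ± 0.29 in irradiated tumors (adjusted p = 0.159). The call was lost in each fit that left out a single library other than irradiated replicate 1 (adjusted p = 0.0628 to 0.222), with log2 fold changes of -1.997 to -1.52 and 0 to 75 genes called in all, where 108 were called with all tumors. Nkg7, a granule membrane protein of NK and T cells, had 14, 12 and 101 counts in irradiated tumors, 20, 75 and 19 with R788 + anti-PDL1, and 11, 10 and 3 in vehicle. Its log2 fold changes were 1.88 ± 0.91, 2.35 ± 0.92 and 0.47 ± 0.84 (adjusted p = 0.484, 0.341 and 0.775).

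All 9 genes for granule release were tested, with medians of -0.09, -0.11 and -0.23, and 0 were called. Vamp7, a vesicle fusion protein of many cells, had 36.4, 41.0 and 35.6 CPM in vehicle tumors and 16.1, 22.0 and 24.1 CPM in irradiated tumors, a difference of -0.86 ± 0.22 (adjusted p = 0.215). Stxbp2, which binds syntaxins in granule release, differed by -0.96 ± 0.35 between R788 + anti-PDL1 and vehicle (adjusted p = 0.317). The granzyme inhibitors gave no call, with 3 of 4 genes tested. Serpinb9, which inhibits granzyme B, differed by -0.24, -0.25 and -0.01, each with an SE of 0.40. Serpinb6b had -0.10, 0.49 and 0.59, each with an SE of 0.53.

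The 8 genes for granzyme targets in the target cell had medians of -0.18, -0.10 and 0.17, and 0 were called. Set, a protein that granzyme A cleaves, differed by -0.41 ± 0.20 between R788 + anti-PDL1 and vehicle (adjusted p = 0.480). Among the 4 genes of death receptor killing, the other route of cytotoxic cells, 3 were tested and 0 were called. Fas, the receptor, had 16, 27 and 16 counts in vehicle tumors, 63, 49 and 38 with R788 + anti-PDL1, and 47, 50 and 64 in irradiated tumors, so both treated groups were above vehicle, by 1.05 ± 0.41 and 1.58 ± 0.42 (adjusted p = 0.354 and 0.221). Tnfsf10, which encodes the ligand TRAIL, differed by 1.17 ± 0.58 and 1.26 ± 0.58 (adjusted p = 0.501 and 0.385).

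Among 8 transcription factors of cytotoxic cells, 6 were tested and 1 was called. Zeb2, which acts in terminally differentiated killer cells and also in macrophages and neural crest cells, had 9.39, 8.94 and 8.77 CPM in vehicle tumors, 45.1, 44.4 and 45.0 CPM with R788 + anti-PDL1, and 25.2, 19.7 and 49.6 CPM in irradiated tumors. It rose by 2.31 ± 0.32 on the log2 scale with R788 + anti-PDL1 (adjusted p = 0.0383), and differed by 1.80 ± 0.32 in irradiated tumors (adjusted p = 0.0921). The call was lost without any single vehicle or R788 + anti-PDL1 tumor or irradiated replicate 2 (adjusted p = 0.0569 to 0.216), with log2 fold changes of 2.29 to 2.36 and again 0 to 75 genes called in all. Bhlhe40, a factor of stimulated T cells and many other cells, differed by -1.26 ± 0.28 and -1.34 ± 0.28 from vehicle (adjusted p = 0.0890 and 0.142). Tbx21, a factor known to control granzyme B and perforin, had 4, 0 and 0 counts in vehicle tumors, 1, 14 and 11 with R788 + anti-PDL1, and 0, 4 and 17 in irradiated tumors, and Eomes, a related factor, had 6 to 44 counts.

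Of 14 cytokines and receptors that induce granzymes, 8 were tested and 0 were called. All 8 had positive log2 fold changes in irradiated against vehicle tumors, with a median of 1.62, and 7 did in each other comparison, with medians of 1.14 and 0.79. Only 3 of the 8 were above vehicle without overlap in the irradiated tumors, against 9.27% of all genes. Among those that overlapped, Il2rb had 1.62, 4.47 and 14.8 CPM in irradiated replicates 1 to 3, and 1.75 to 2.82 CPM in vehicle. Il2rg had 2.14, 3.55 and 19.1 CPM against 2.42 to 3.42, and Il21r 1.48, 0.812 and 6.58 CPM against 1.43 to 2.04. Il15ra, the receptor chain that presents IL-15, had 3.75, 3.32 and 4.17 CPM in vehicle tumors, 1.94, 3.67 and 1.23 CPM with R788 + anti-PDL1, and 5.53, 7.20 and 10.1 CPM in irradiated tumors, which were above both other groups. It differed by 1.03 ± 0.44 from vehicle (adjusted p = 0.365) and by 1.74 ± 0.45 from R788 + anti-PDL1 (adjusted p = 0.194). Il12rb1, a chain of the IL-12 receptor, differed from vehicle by 2.31 ± 0.63 in irradiated tumors (adjusted p = 0.222) at 2 to 4 counts in vehicle. Il2, the T cell growth factor, had 0 counts in all 9 tumors.

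The genes most like each subgroup over the 9 tumors were ranked by Pearson's r of log2 CPM among 11633 genes whose mean count reached 50. Those nearest to the Gzmd to Gzmg sum were Nim1k (0.969), Fam129b (0.966), Vps37b (0.965), Vps72 (0.961) and Cda (0.95). Their ranges were narrow beside those of the granzymes, for example 3.02 to 5.46 CPM for Nim1k and 97.2 to 143 CPM for Fam129b. Nearest to the sum of Gzma, Gzmb and Gzmk were Scara5 (0.939), Gpx3 (0.936), Lpar6 (0.933), Acss1 (0.926) and Zmynd15 (0.923). In all 5, as in the sum, R788 + anti-PDL1 replicate 2 was highest, for example at 12.7 CPM of Gpx3 against 1.26 to 5.85 CPM in the other tumors. None of the 10 was on a list of lymphocyte genes used here.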

How the data were processed

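RNA-seq counts of 9 whole tumors were used, grouped by their treatment labels. Per the labels and the methods of the study, the authors mapped reads to mm10 with STAR (2.6.1d) and quantified them with Salmon (1.4.0). The deposited file held estimated counts per gene symbol as whole numbers, not normalized. The sources disagree on the sequencer and on single or paired reads, and the extraction label names macrophages although the tissue label says whole tumor. Genes were filtered (filterByExpr, minimum count 10), which left 15931 of 54429, normalized by TMM and fitted with edgeR 4.0.16 (R 4.3.3), robust quasi-likelihood F test, two-sided, with 1 coefficient per group over all 9 libraries. Benjamini-Hochberg adjustment covered all genes tested, and a gene was called at an adjusted p under 0.05. CPM use TMM factors. Errors are SE of log2 fold changes or SD over 3 tumors. Nothing says that the 3 tumors of a group came from separate experiments, so p-values measure the spread between these tumors. The steps were tested on simulated counts. Their spread was set below the common estimate of 0.146 for these tumors and no library stood apart, so that test does not show the power here. The members and lists were chosen with earlier results of these data known. Pathway genes were named by rule, the 2 with the lowest p per list, besides those given as defining markers, Tbx21, Eomes and Il2, which were added after their values were seen. A gene chosen by this rule and a marker are not reported here. Gene positions came from GENCODE M21 and promoters from RefSeq (GRCm38.p6), aligned pairwise with Biopython. Alternatives were DESeq2 1.42.0, limma-voom (limma 3.58.1), other normalizations, filters and sample sets, a replicate block and leaving out each library.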

Additional observations from a re-analysis of the deposited data

How the results depend on the processing

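The counts of members called depended on the tool. For R788 + anti-PDL1 against vehicle, irradiated against vehicle, and irradiated against R788 + anti-PDL1, edgeR called 0, 0 and 0 members, with 1, 6 and 6 at an unadjusted p under 0.05. DESeq2 called 1, 2 and 5. Voom with sample quality weights, chosen after seeing the data, called 2, 6 and 6, and 4835, 1993 and 3080 of all genes. The counts were 0 with limma-voom, other normalizations, filters or sample sets, and without each replicate in turn. Since 0 members passed in the fits of all tumors by edgeR, these counts cannot show stability. Gzmc to Gzmg had positive log2 fold changes in both comparisons of the irradiated tumors under every alternative that tested them. In R788 + anti-PDL1 against vehicle, where values were near 0, Prf1 reversed to 0.016 with limma-voom, 0.052 with upper-quartile normalization, 0.022 with at least 10 counts in every library, 0.011 with only the 6 libraries compared, and 0.33 with quality weights, as did Gzmd (0.32) and Gzme (0.25) with quality weights. Gzmb between the treated groups reversed to 0.11 with these weights. Over the fits that left out 1 replicate, values of R788 + anti-PDL1 against vehicle ran from -0.60 to 0.39 for Gzmd, -1.28 to 0.97 for Gzme, -0.97 to 0.086 for Gzmf and -0.21 to 0.29 for Prf1, and those of Gzmb between the treated groups from -0.34 to 0.22. The cause of these reversals was not tested. Upper-quartile normalization moved the median of all genes to 0.11 in irradiated against vehicle.

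Deviations of same-numbered tumors from their group means correlated at r = -0.05 to 0.23, and at 0.054 to 0.23 between vehicle and irradiated tumors. Differently numbered tumors were not compared, so these values cannot show whether the replicate numbers pair the tumors. With the replicate number as a block, 0, 0 and 0 members were called, with 1, 5 and 5 at an unadjusted p under 0.05. Depth limited Gzmk, which could not be tested, and Gzme, with 4 to 28 counts in unirradiated tumors.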
